A study of Mus musculus with 6 samples.

Results

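Long intergenic noncoding RNAs (lincRNAs) are spliced or unspliced RNA polymerase II transcripts that lie between protein-coding genes and carry no long conserved reading frame. Some act near their own gene, as Jpx and Ftx do at the X inactivation centre. Others serve mainly as hosts, from whose introns or exons small nucleolar RNAs (snoRNAs, guides of ribosomal RNA modification) or microRNAs are cut. Most are made at low levels and are more restricted to particular cell types than mRNAs. Some are turned over by the nuclear exosome or by nonsense-mediated decay.

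Expressed lincRNAs were followed here in primary hepatocytes isolated from C57BL/6J mice by collagenase digestion. After a night in growth medium, the cells received about 1000000 viral particles per 1000000 cells of an adenovirus that encoded either β-gal, the control protein, or Aloxe3, the lipoxygenase eLOX3. RNA was collected at 24 h, and 3 libraries were made per group: β-gal replicates 1, 2 and 3, and Aloxe3 replicates 7, 8 and 9. Both groups were infected, so that no library shows uninfected cells, and the transgenes entered cultured hepatocytes rather than a liver. Genes were included when GENCODE M21 gives them the biotype lincRNA and their mean over the 6 libraries was at least 0.5 RPKM (reads per kilobase of exon and per 1000000 library reads). Neat1 and Malat1 were left out by the same rule. In all, 166 genes qualified out of 2521 lincRNA genes and 41388 genes in the table. A further 762 lincRNA genes were above 0 in at least 1 library but under that level, and 1591 were at 0 in every library.

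Aloxe3 itself, which checks the labels, was at 2.04, 2.06 and 1.74 RPKM in the β-gal libraries and at 42.3, 45.8 and 56.3 RPKM in the Aloxe3 libraries. This was a log2 fold change of 4.05 ± 0.10 (SE, n = 3 per group), with an adjusted p of 4.74e-06 in limma. Libraries held 25521908 to 32431318 reads. Hepatocyte markers summed to 5240 to 5270 RPKM in β-gal and 5040 to 5210 RPKM in Aloxe3-overexpressing cells, mostly Alb. Of the 11 tested, 1 was called lower, Ttr, as 0.0394% of all tested genes were. Of the 11, 6 had a positive log2 fold change. Ttr, Apoa1 and Serpina1a were lower without overlap, where 8.71% of all tested genes were. Cps1 was higher without overlap, where 11.2% were. Several enzymes of the intact liver were low in both groups, as Cps1 was at 0.985 and 1.496 RPKM and Tat at 0.278 and 0.578 RPKM. Of other cell types, Kupffer cell markers summed to 150 to 153 against 133 to 146 RPKM, almost all of it Cd68. Adgre1 was at 1.67 against 1.56 RPKM, Csf1r at 1.375 against 1.467 RPKM and Marco at 0.943 against 0.911 RPKM, each with overlapping groups. Clec4f and Timd4 lay under 0.1 RPKM. Endothelial markers summed to 32.8 to 37.6 against 32.5 to 37.0 RPKM, and lymphocyte markers to at most 0.301 RPKM. Stellate markers summed to 4.55 to 5.02 against 4.39 to 4.92 RPKM. Among them Col1a1 was at 2.37 against 2.27 RPKM, Dcn at 1.13 against 1.10 RPKM and Lrat at 0. Dgcr8, a listed microRNA biogenesis gene, was also at 0 in every library, so a 0 here need not mean absence. Cholangiocyte markers summed to 1510 to 1590 against 1580 to 1720 RPKM, mostly Spp1. Sox9 was at 41.5 against 43.0 RPKM and Krt19 at 42.9 against 38.5 RPKM. The part of these markers in the values that follow was not tested. In bulk samples, fewer cells of a type and less RNA per cell cannot be told apart.

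Some of the lincRNA genes carry microRNAs, and their sequences show which families these transcripts can feed. Mir17hg (chr14:115042879-115046727, plus strand) is the host of the miR-17-92 cluster, known for its role in proliferation. 6720427I07Rik (chr13:48532905-48546500, minus strand) spans let-7 genes, which restrain growth programs. E130102H24Rik (chr4:101346531-101356735, minus strand) spans Mir101a. Gm26532 (chr8:84208920-84209609, plus strand) begins on the last 2 bases of Mir24-2, at the end of the miR-23a/27a/24-2 cluster on the same strand. The mature sequences from RefSeq (GRCm38.p6) follow, with the seed (bases 2 to 8), the stretch that pairs with targets, in capitals.
miR-17-5p (Mir17hg): cAAAGUGCuuacagugcagguag
miR-20a-5p (Mir17hg): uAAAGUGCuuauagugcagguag
miR-18a-5p (Mir17hg): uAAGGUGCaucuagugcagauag
miR-19a-3p (Mir17hg): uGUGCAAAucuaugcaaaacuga
miR-19b-3p (Mir17hg): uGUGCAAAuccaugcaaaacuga
miR-92a-3p (Mir17hg): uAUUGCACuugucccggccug
let-7a-5p (6720427I07Rik): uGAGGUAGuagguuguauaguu
let-7d-5p (6720427I07Rik): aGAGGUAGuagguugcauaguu
let-7f-5p (6720427I07Rik): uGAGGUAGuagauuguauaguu
miR-101a-3p (E130102H24Rik): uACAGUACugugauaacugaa
miR-23a-3p (beside Gm26532): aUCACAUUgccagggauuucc
miR-27a-3p (beside Gm26532): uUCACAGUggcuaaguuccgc
miR-24-3p (beside Gm26532): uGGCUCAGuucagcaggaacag
The let-7 members share 1 seed. In Mir17hg, miR-17 and miR-20a share a seed, as do miR-19a and miR-19b, while miR-18a and miR-92a each have their own.

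The lincRNA genes were chosen by their mean level over all 6 libraries, so the levels are given as a description. A high level in 1 group alone could carry a gene past 0.5 RPKM, and the genes to which this applies are counted below. The median was 1.06 RPKM, against 8.38 RPKM for the 11270 tested protein-coding genes. Of the 166 genes, 80 were under 1 RPKM, 63 at 1 to 5, 21 at 5 to 50 and 2 above 50 RPKM. Gm26917 and Gm42418 (chr17:39843013-39846341 and chr17:39846958-39848788, both plus strand) stood far above the rest and held 90.3% to 92.2% of the summed RPKM. RefSeq lists Gm42418 as Rn18s-rs5, an 18S ribosomal RNA related pseudogene, and 99.5% of its exon length lies in exons of other annotated genes. Gm26917 lies upstream of Gm42418 on the same strand, and whether the reads of either gene come from ribosomal RNA was not tested. Gm26917 was at 3473, 2654 and 4021 RPKM in β-gal and at 3037, 3674 and 3652 RPKM in Aloxe3-overexpressing cells. Gm42418 was at 1798, 2636 and 1777 against 1596, 1762 and 2343 RPKM. The groups overlapped for both genes. Together they took 0.556% to 0.746% of each library's reads, and the other 164 lincRNA genes together took 0.0826% to 0.0883%.

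**Figure D1:**
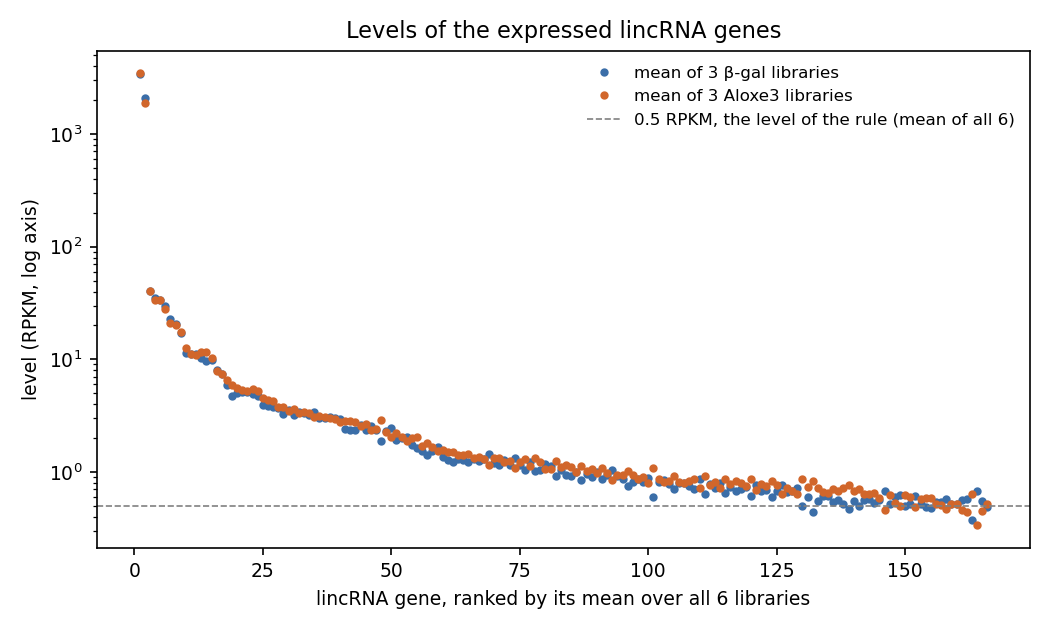
Mean level (RPKM, log axis) of each of the 166 lincRNA genes in the 3 β-gal libraries (blue) and the 3 Aloxe3 libraries (orange), ranked by the mean over all 6, with the 0.5 RPKM of the rule dashed. The first 2 genes, Gm26917 and Gm42418, lie far above a slope that runs down to the dashed line, and the colours of a gene lie close together along it.

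The next highest genes were far below these. Gm11216, about which little is known, was at 39.5, 40.1 and 40.7 RPKM in β-gal and at 39.6, 42.6 and 38.6 RPKM in Aloxe3-overexpressing cells. The groups overlapped, and the log2 fold change was 0.01 ± 0.04 (SE). 1810058I24Rik, which RefSeq lists as protein coding, was at 34.7, 35.1 and 35.5 against 34.5, 32.6 and 34.2 RPKM. All 3 Aloxe3 values lay below the β-gal values, by a log2 fold change of -0.06 ± 0.04 (adjusted p = 0.560, limma). Tmem250-ps, also protein coding in RefSeq, was at 20.7 ± 0.725 (SD, n = 3) against 19.97 ± 1.74 RPKM. Wincr1, a WNT-induced noncoding RNA, was at 17.2 ± 2.69 against 17.4 ± 1.15 RPKM, and 4930461G14Rik at 11.5 ± 0.732 against 12.6 ± 1.70 RPKM. Replicates of a typical lincRNA gene differed more than those of a typical mRNA, with a median coefficient of variation of 12.9% against 5.28% for protein-coding genes. The median lincRNA gene had 57.0 to 68.5 reads per library, and 68 genes had fewer than 50 on average.

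The genes at the edge of the rule were C030014I23Rik, Gm28231 and Gm13203 just inside, with means over the 6 libraries of 0.503, 0.504 and 0.505 RPKM, and Gm26561, 1700086P04Rik and Gm27010 just outside, at 0.4995, 0.498 and 0.495 RPKM. Of the 166 genes, 15 had 1 group mean under 0.5 RPKM. For 8 of them it was the β-gal mean, and for 7 the Aloxe3 mean. Such a gene passed only through the group where it is higher, so its direction is partly fixed by the choice.

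In total 12 lincRNA genes had annotated small RNA genes inside them on the same strand, 7 with snoRNA or scaRNA genes and 7 with microRNA genes, 2 of the hosts with both. Of these hosts 3 were among the 10 highest lincRNA genes, 9 lay above the median level of the 166 and 3 below it. None passed the adjusted p in limma or voom, and 1 of the 12 (8.33%), Snhg20, had an unadjusted p under 0.05 in limma, which 12.7% of all tested genes reached. Epb41l4aos, host of a snoRNA, was at 28.9, 37.7 and 35.2 RPKM in β-gal and at 31.6, 33.6 and 35.2 RPKM in Aloxe3-overexpressing cells. Its groups overlapped, and the log2 fold change was -0.01 ± 0.09. Snhg6, host of Snord87, was at 30.1, 30.7 and 28.9 against 27.2, 31.2 and 26.2 RPKM, a log2 fold change of -0.09 ± 0.06 (adjusted p = 0.601, limma). Snhg12, which spans Snora16a, Snora44, Snora61 and Snord99, was at 21.8, 25.5 and 20.5 against 19.5, 23.2 and 20.8 RPKM. The groups overlapped for each of these abundant hosts. At lower levels, 2700038G22Rik, host of Snord93, was at 5.01 ± 0.370 against 5.52 ± 0.460 RPKM. Snhg18 was at 0.802 ± 0.149 against 0.727 ± 0.0922 RPKM, and 2900076A07Rik at 1.94 ± 0.139 against 2.21 ± 0.333 RPKM.

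Snhg20 was the snoRNA host with the smallest p. It was at 3.76, 3.67 and 4.04 RPKM in β-gal and at 4.25, 4.56 and 4.19 RPKM in Aloxe3-overexpressing cells. All Aloxe3 values lay above all β-gal values, by a log2 fold change of 0.14 ± 0.05, with an adjusted p of 0.321 in limma. Of the 22 listed snoRNA host genes of any biotype, 15 were in the table and 12 were tested. Among these, 4 had a positive and 8 a negative log2 fold change, with a median of -0.03 against 0.005 over all tested genes, and none was called. Gas5, the most abundant of them, was at 45.0 RPKM in β-gal and 44.8 RPKM in Aloxe3-overexpressing cells.

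**Figure D2:**
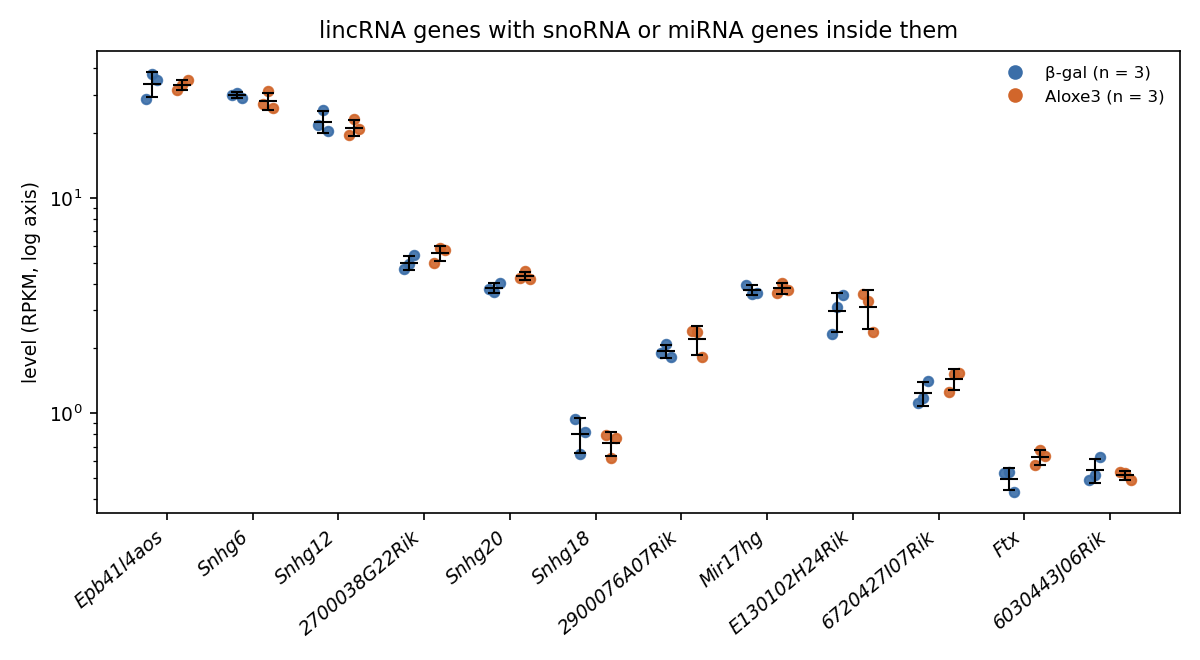
Level (RPKM, log axis) of the 12 lincRNA genes with snoRNA or microRNA genes inside them, with 1 point per library and the mean ± SD of each group as bars. The β-gal (blue) and Aloxe3 (orange) points of most genes interleave, and those of Snhg20 and Ftx do not.

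The microRNA hosts whose sequences are given above gave no call either. Mir17hg was at 3.95, 3.58 and 3.63 RPKM in β-gal and at 3.62, 4.04 and 3.72 RPKM in Aloxe3-overexpressing cells, a log2 fold change of 0.02 ± 0.05 with overlapping groups. The let-7 host 6720427I07Rik was at 1.12, 1.18 and 1.41 against 1.26, 1.52 and 1.55 RPKM, a log2 fold change of 0.13 ± 0.08 (adjusted p = 0.535, limma). E130102H24Rik, which carries Mir101a, spread widely within each group, from 2.33 to 3.54 and from 2.39 to 3.58 RPKM. 6030443J06Rik was at 0.544 ± 0.0713 against 0.516 ± 0.0245 RPKM, and starts 3 bases from Orc5, a subunit of the origin recognition complex. The small RNA genes themselves had few reads in these libraries of polyadenylated RNA. Of the 21 inside a host that were in the table, 13 were at 0 in all libraries and none had more than 8 reads in a library. Of 15 listed microRNA host genes, 12 were in the table and 3 were tested (Mir17hg, Ftx and Mir22hg). All 3 had small positive log2 fold changes, with a median of 0.02, and none was called.

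None of the 166 lincRNA genes passed an adjusted p of 0.05 in limma, where 0.394% of all 12693 tested genes did. Of all tested genes 0.355% were called higher and 0.0394% lower. At an unadjusted p under 0.05 there were 16 lincRNA genes, or 9.64%, where 12.7% of all tested genes reached it. In 14 the Aloxe3 level was the higher one, a side on which 7.31% of all tested genes lay, and in 2 it was the lower one, on which 5.42% lay. The count of 16 moved with the fit. Without the mean-variance trend it was 25 of the 166 genes, where 12.3% of all tested genes reached an unadjusted p under 0.05. With a library left out the lowest count was 12, without Aloxe3 replicate 8, where 11.6% of all tested genes did. The highest was 28 (16.9%), without Aloxe3 replicate 7, where 14.4% of all tested genes did. With voom in limma on the reads derived from the RPKM values, 1 lincRNA gene was called, Mirt1, which was higher in Aloxe3-overexpressing cells. Of all tested genes voom called 1.37%, with 1.17% higher and 0.205% lower. Log2 fold changes ran from -0.32 to 0.39, and 4 genes exceeded 0.3 in size. An exact permutation test of 3 against 3 libraries cannot give a single gene a two-sided p below 0.1.

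**Figure D3:**
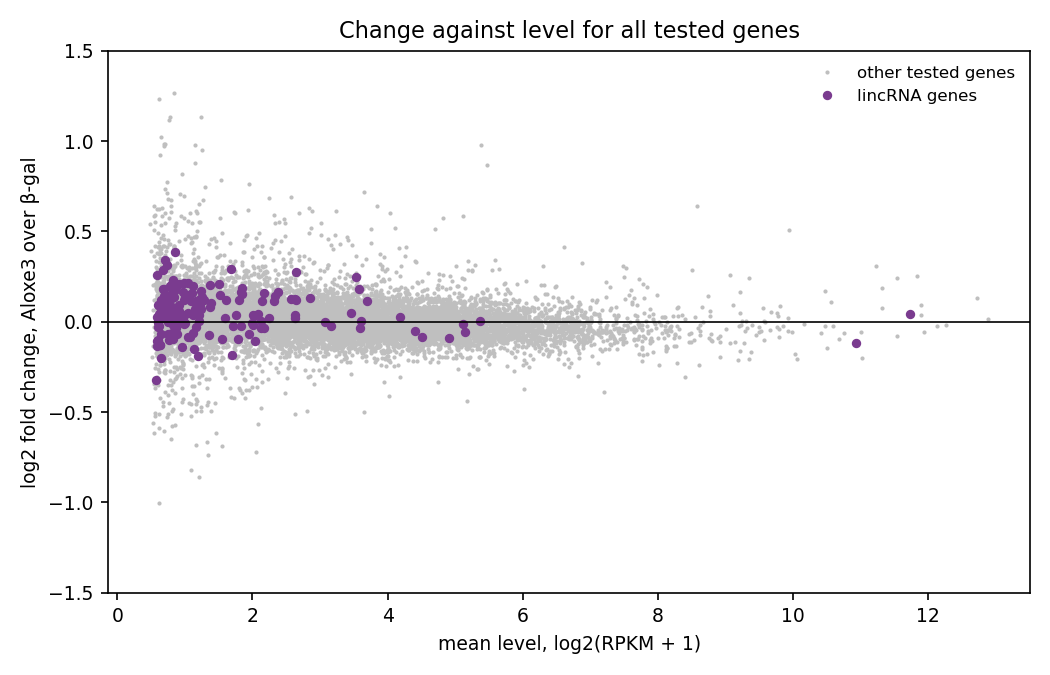
Log2 fold change, Aloxe3 over β-gal, against the mean level as log2(RPKM + 1) for the 166 lincRNA genes (purple) and all other tested genes (grey). The lincRNA genes crowd at low levels, lie between -0.32 and 0.39 and stay within the grey cloud, and 2 other genes lie outside the axis limits of ±1.5.

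More lincRNA genes leaned upward than downward, by small amounts. A positive log2 fold change was found for 115 of 166 (69.3%), where 52.4% of all tested genes had one, and the median was 0.047 against 0.0049. Protein-coding genes of similar level were closer to this share. At 0.5 to 1 RPKM 70.0% of the lincRNA and 64.7% of the protein-coding genes were positive, and at 1 to 5 RPKM 69.8% and 63.3%. At 5 RPKM or more the shares were 65.2% and 45.0%. Of processed transcripts 68.3% were positive, and of antisense genes 64.1%. After quantile normalization 90 of 166 (54.2%) were positive, with a median of 0.0124, against 46.9% and -0.0058 for all tested genes under the same scaling. With voom the median was 0.0972, against 0.0067 for all tested genes. Groups did not overlap for 26 lincRNA genes (15.7%, where 19.9% of all tested genes did so). The Aloxe3 libraries were above in 22 (13.3%, where 11.2% of all tested genes did so) and below in 4 (2.41%, where 8.71% did). Without the 15 genes that passed the level through 1 group alone, 107 of 151 (70.9%) had a positive log2 fold change and groups did not overlap for 20 (13.2%). Of all tested genes with both group means at 0.5 RPKM or more, 52.0% had a positive log2 fold change and 19.7% had groups that did not overlap. By library, the median deviation of the lincRNA genes from their β-gal mean on the log2(RPKM + 1) scale was -0.02, 0.01 and 0.01 in the β-gal libraries, which themselves make up that mean. It was 0.04, 0.07 and 0.05 in the Aloxe3 libraries.

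Some other kinds of RNA leaned upward too and others did not. The median log2 fold change was 0.0482 over 220 antisense genes and 0.0413 over 104 processed transcripts. It was 0.1241 over 56 small nuclear RNA genes and 0.0901 over 135 microRNA genes, both above the lincRNA median. It was -0.0101 over 345 processed pseudogenes and -0.0459 over 144 snoRNA genes, although the 37 snoRNA genes at 0.5 to 1 RPKM had 0.1475. Protein-coding genes had a median of 0.0035 over all levels, but 0.029 over the 939 at 0.5 to 1 RPKM and 0.0289 over the 3144 at 1 to 5 RPKM. The lincRNA medians in these bands were 0.0515 (80 genes) and 0.0696 (63 genes), and 0.0203 for the 23 genes at 5 RPKM or more, where protein-coding genes had -0.0098. These medians are descriptions, and the difference between the kinds of gene was not tested.

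**Figure D4:**
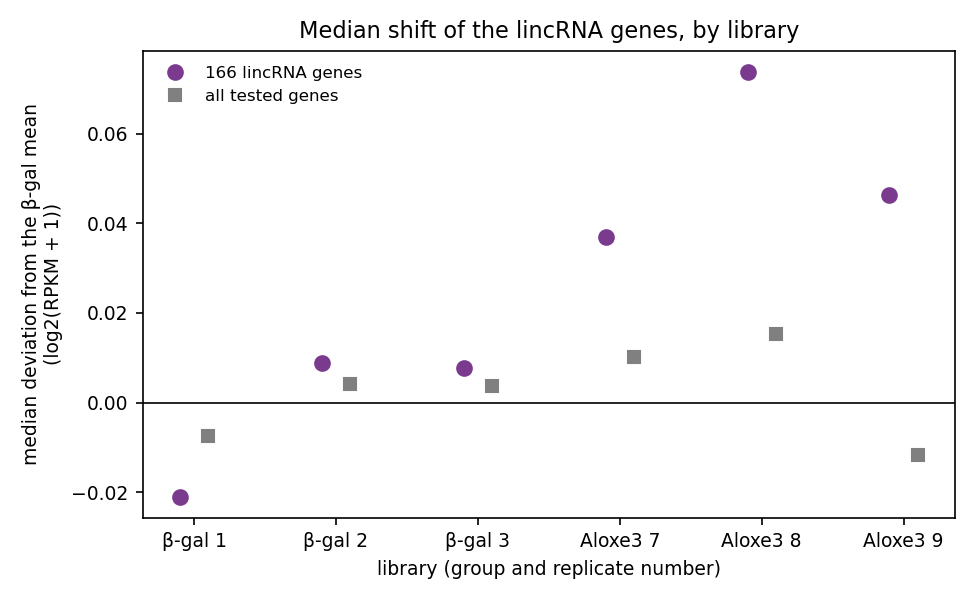
Median deviation from the β-gal mean, on the log2(RPKM + 1) scale, over the 166 lincRNA genes (purple circles) and over all tested genes (grey squares), with 1 pair of points per library. The lincRNA medians lie between 0.037 and 0.0738 in the Aloxe3 libraries, where those of all tested genes lie between -0.0118 and 0.0153.

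The smallest p belonged to Gm26532, the transcript that follows the miR-23a/27a/24-2 cluster, named here after its values were seen. Gm26532 was at 4.63, 4.87 and 4.56 RPKM in β-gal and at 6.42, 5.86 and 5.43 RPKM in Aloxe3-overexpressing cells. The groups did not overlap, and the log2 fold change was 0.28 ± 0.06 (unadjusted p = 0.00186, adjusted p = 0.150, limma), with adjusted p from 0.119 to 0.367 under the alternatives. The hairpins upstream had few reads in any library. Mir23a had 3, 2 and 3 reads in β-gal and 0, 3 and 3 in Aloxe3-overexpressing cells, and Mir27a had 7, 4 and 7 against 1, 5 and 2.

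Mirt1, a transcript first described in the infarcted mouse heart (chr19:53443230-53464796, minus strand), had replicates that lay close together. It was at 1.03, 1.01 and 1.03 RPKM in β-gal and at 1.35, 1.34 and 1.27 RPKM in Aloxe3-overexpressing cells. The log2 fold change on the log2(RPKM + 1) scale was 0.20 ± 0.06, with an adjusted p of 0.254 in limma. On the derived reads it was 0.37 ± 0.08, with an adjusted p of 0.0318 by voom, and adjusted p ran from 0.0318 to 0.556 over the alternatives. Of its exon length 11.8% lies in exons of 4833407H14Rik.

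The 5 largest positive log2 fold changes belonged to Gm14010, Lockd, 2700033N17Rik, Gm10076 and Gm13833, all from few reads. Gm14010 was at 0.746, 0.330 and 0.723 RPKM in β-gal and at 1.15, 0.880 and 1.21 RPKM in Aloxe3-overexpressing cells, a log2 fold change of 0.39 ± 0.12 (adjusted p = 0.289, limma) from 4 to 12 reads per library. Lockd was at 0.438, 0.566 and 0.334 against 0.941, 0.604 and 0.962 RPKM, a log2 fold change of 0.34 ± 0.10 (adjusted p = 0.279, limma) from 7 to 18 reads. The groups did not overlap for either gene, and Lockd passed the level only through its Aloxe3 mean. Lockd lies 8691 bases downstream of the start of Cdkn1b, which encodes the cell cycle inhibitor p27, and its locus is known to hold an enhancer of that gene. Cdkn1b itself had a log2 fold change of 0.18 ± 0.07 (adjusted p = 0.324, limma).

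2700033N17Rik was at 0.473, 0.599 and 0.422 against 0.761, 0.730 and 1.10 RPKM, and its groups did not overlap (log2 fold change 0.31 ± 0.10, adjusted p = 0.285, limma). Gm13833 was at 0.604, 0.557 and 0.235 against 0.708, 0.824 and 0.789 RPKM, again without overlap (0.28 ± 0.11, adjusted p = 0.339). Both genes passed the level only through their Aloxe3 mean. Gm10076, which RefSeq lists as a pseudogene, was at 1.86, 2.01 and 1.85 against 1.33, 2.06 and 5.32 RPKM. Its difference rested on Aloxe3 replicate 9, since the log2 fold change was 0.29 with it and -0.12 without it.

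The 5 largest negative log2 fold changes belonged to Gm13203, Gm17300, 2210008F06Rik, Gm17501 and 3830432H09Rik. Gm13203 was at 0.358, 0.949 and 0.715 RPKM in β-gal and at 0.151, 0.569 and 0.291 RPKM in Aloxe3-overexpressing cells, from 2 to 16 reads, with overlapping groups (log2 fold change -0.32 ± 0.16, adjusted p = 0.448, limma). Gm17300 was at 0.690, 0.707 and 0.642 against 0.487, 0.409 and 0.496 RPKM, without overlap (-0.20 ± 0.07, adjusted p = 0.300). Both genes passed the level only through their β-gal mean. Of the exon length of Gm17300, 62.6% lies in exons of Rcc1, Snhg3, Snora73a and Snora73b, and reads that could belong to several genes were left out of the counts. Gm17501 was at 2.42, 2.15 and 2.82 against 2.11, 2.04 and 1.98 RPKM, also without overlap (-0.18 ± 0.08, adjusted p = 0.376). It starts 331 bases from Ccn1, a matricellular protein gene read in the other direction, whose log2 fold change was -0.04 ± 0.07. 2210008F06Rik was at 1.45 ± 0.176 against 1.15 ± 0.247 RPKM and 3830432H09Rik at 1.32 ± 0.0534 against 1.09 ± 0.198 RPKM.

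**Figure D5:**
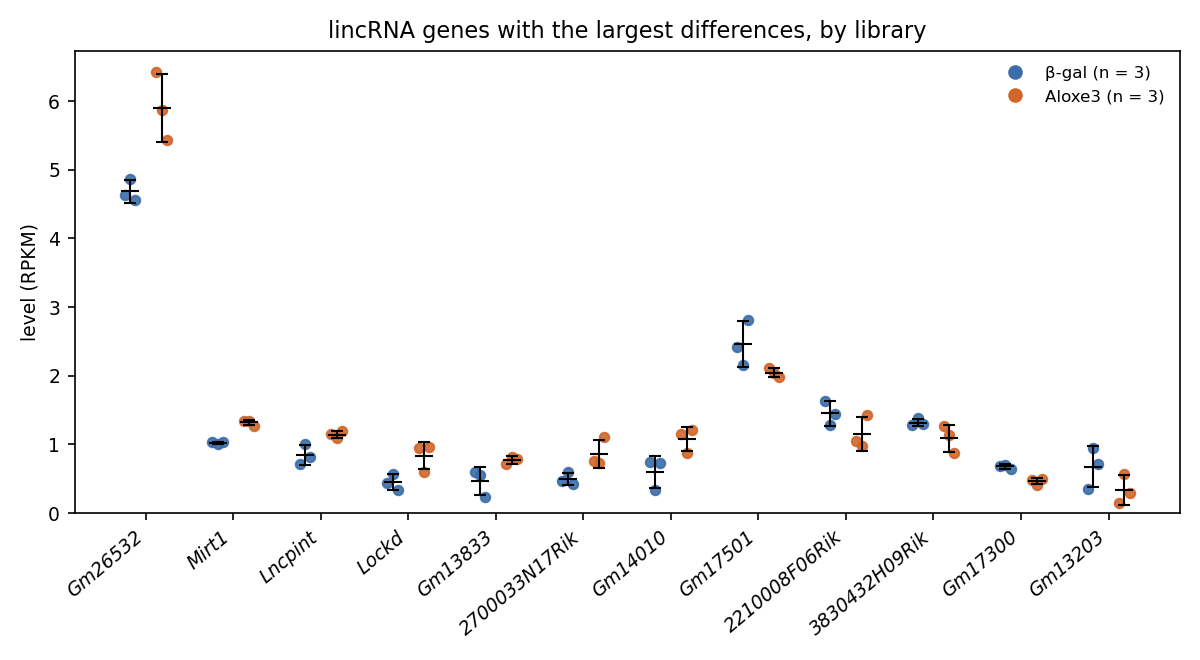
Level (RPKM) by library of 12 lincRNA genes: Gm26532 and Mirt1 with the smallest p in limma and the voom call, Lncpint, and the genes with the largest positive and negative log2 fold changes except Gm10076. Points are libraries (blue β-gal, orange Aloxe3) and bars the mean ± SD, and the colours separate without overlap for Gm26532, Mirt1, Lncpint, Lockd, Gm13833, 2700033N17Rik, Gm14010, Gm17501, 3830432H09Rik and Gm17300.

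RefSeq promoter windows (GRCm38.p6), from 250 bases before to 50 after a start, were matched for 88 of the lincRNA genes, those RefSeq calls protein coding left out. CG pairs, the sites of DNA methylation and a mark of broadly active promoters, were counted in them. Where a gene had several windows, the one with the most pairs was used. The median was 10.0 CG pairs for the lincRNA genes and 15 for 17492 protein-coding genes. At least 10 pairs were found in 51.1% of the lincRNA genes, 59.5% of the protein-coding genes and 45.8% of all 27025 genes with a window. The lincRNA genes that start within 1 kb of a protein-coding start and are read away from it had a median of 29.0 (21 genes), and the others 6.0 (67 genes). Lockd and Mirt1, both described above, are shown as a richer and a poorer example, with each CG pair in capitals.
Lockd, chr6:134928842-134929141, plus strand: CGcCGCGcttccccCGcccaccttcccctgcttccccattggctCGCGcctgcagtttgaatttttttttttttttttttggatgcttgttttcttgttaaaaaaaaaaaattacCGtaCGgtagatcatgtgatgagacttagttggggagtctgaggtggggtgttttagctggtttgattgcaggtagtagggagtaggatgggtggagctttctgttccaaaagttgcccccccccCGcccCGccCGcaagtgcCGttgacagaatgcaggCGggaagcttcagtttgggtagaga
Mirt1, chr19:53464747-53465046, minus strand: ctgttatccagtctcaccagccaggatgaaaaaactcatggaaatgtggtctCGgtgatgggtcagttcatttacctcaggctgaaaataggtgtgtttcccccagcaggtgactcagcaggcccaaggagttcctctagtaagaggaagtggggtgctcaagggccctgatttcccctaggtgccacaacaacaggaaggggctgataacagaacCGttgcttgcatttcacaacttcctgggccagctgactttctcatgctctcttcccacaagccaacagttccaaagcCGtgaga
The Lockd window holds 13 CG pairs, a number that 37.9% of all windows reach, and the Mirt1 window 3, which 76.7% of all windows reach.

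In total 29 lincRNA genes formed such divergent pairs, and their median log2 fold change was 0.0014, against 0.061 for the other 137. Of the coding partners 26 were tested, 17 had the same sign as their lincRNA gene, and none passed the adjusted p in limma. Over all 123 lincRNA genes with a tested nearest coding neighbour, Pearson's r between the log2 fold changes of the pair was 0.14. It is a description across genes, which share the 6 libraries. Exons of 59 lincRNA genes overlapped those of another gene, in 8 over the greater part of their length. Leaving all 59 out, 12 of 107 genes (11.2%, against 19.9% of all tested genes) had non-overlapping groups and the median log2 fold change was 0.0375.

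Some of the noncoding RNAs listed under the p53 and stress responses are known to be induced by DNA damage or to sit beside its effectors. Of 9 listed, 5 were in the table, 4 were tested and 3 of these were lincRNA genes. All 4 log2 fold changes were positive, with a median of 0.06, where 52.4% of all tested genes had a positive one. The fifth gene in the table, Lncenc1, was under the level for testing and had the lower mean in Aloxe3-overexpressing cells, at 0.524 against 0.356 RPKM. None was called by limma, and Lncpint alone had an unadjusted p under 0.05. Lncpint, a p53 target that binds the PRC2 complex, was at 0.718, 1.00 and 0.821 RPKM in β-gal and at 1.15, 1.09 and 1.19 RPKM in Aloxe3-overexpressing cells. The groups did not overlap, with a log2 fold change of 0.22 ± 0.07 (adjusted p = 0.313, limma). Trp53cor1 (lincRNA-p21) was at 0.608 ± 0.0593 against 0.664 ± 0.0358 RPKM, and Cdkn1a (p21), its nearest coding neighbour, had a log2 fold change of 0.20 ± 0.04 with an adjusted p of 0.0993. Pvt1, the neighbour of Myc, was at 1.30 ± 0.131 against 1.31 ± 0.0805 RPKM. Tug1, which GENCODE M21 calls antisense, had a log2 fold change of 0.08 ± 0.05.

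At the X inactivation centre, Jpx and Ftx, activators of Xist, were the lincRNA genes above the level. Xist itself was far under it, at 0.0125 RPKM in β-gal and 0.0204 RPKM in Aloxe3-overexpressing cells. Jpx was at 0.518, 0.586 and 0.586 RPKM in β-gal and at 0.590, 0.557 and 0.617 RPKM in Aloxe3-overexpressing cells. Ftx, which also carries Mir421 and Mir374b, was at 0.530, 0.532 and 0.432 against 0.572, 0.675 and 0.632 RPKM. Its groups did not overlap, with a log2 fold change of 0.12 ± 0.07 (adjusted p = 0.517, limma), and it passed the level only through its Aloxe3 mean. Of 9 listed imprinted noncoding RNAs, 8 were in the table and 2 were tested, Airn and Kcnq1ot1, both antisense genes and neither called. Airn was at 0.777 against 1.01 RPKM and Kcnq1ot1 at 0.583 against 0.770 RPKM. The groups did not overlap for either gene, with unadjusted p = 0.0387 for Airn (adjusted p = 0.364, limma) and 0.0628 for Kcnq1ot1 (adjusted p = 0.420, limma).

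Among proteins that can process or degrade such RNAs, none was called by limma in any of the lists. At an unadjusted p under 0.05 there were 2 of the nonsense-mediated decay factors, 1 exosome adaptor, 1 snoRNP protein and 1 microRNA biogenesis gene. These are 5 of 60 tested genes (8.33%), a share below the 12.7% of all tested genes. Of 15 nonsense-mediated decay factors, 8 had a positive log2 fold change, with a median of 0.0055. The smallest adjusted p belonged to Rbm8a, of the exon junction complex (0.18 ± 0.06, adjusted p = 0.300, limma). Of 20 tested exosome subunits and adaptors, 13 were positive, with a median of 0.06. The smallest adjusted p belonged to the poly(A) polymerase Tent4b (0.12 ± 0.05, adjusted p = 0.376, limma) and to Mphosph6 (0.11 ± 0.05, adjusted p = 0.394, limma). Of 17 tested snoRNP proteins, 8 were positive, with a median of -0.0002. The assembly factor Pih1d1 had a log2 fold change of -0.22 ± 0.06 (adjusted p = 0.249) and the core protein Nhp2 one of -0.07 ± 0.04 (adjusted p = 0.452). Of 8 tested microRNA biogenesis genes, 3 were positive, with a median of -0.02. Ago1, which binds the mature microRNA, had -0.09 ± 0.04 (adjusted p = 0.373) and Drosha, which cuts the primary transcript, 0.11 ± 0.05 (adjusted p = 0.431).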

How the data were processed

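Poly(A)-selected RNA from 6 hepatocyte libraries was read as single reads of 50 bases. Per the labels and the submitters' processing notes, the authors aligned reads with STAR 2.0.4b to GRCm38.p2, counted per gene with featureCounts 1.4.5 those that aligned once and belonged to 1 gene, and deposited RPKM values, which were used as they are (0 columns were left unassigned). The preparation as described does not mark strand. Symbols, biotypes and coordinates are from GENCODE M21 (GRCm38); 40340 identifiers matched and 1048 did not, and RefSeq entries matched 117 of the 166 lincRNA genes.

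Groups were taken from the labels. Nothing in them says that libraries came from separate cultures or animals, so p-values measure only the spread between these samples, which may be technical. Replicate pairs differed by more than sampling noise (chi-square per degree of freedom 3.47 to 9.82).

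The main test was limma 3.58.1 (R 4.3.3; lmFit, then eBayes with a mean-variance trend) on log2(RPKM + 1). It covered all 12693 genes averaging 0.5 RPKM or more, and p-values were adjusted over all of these by Benjamini-Hochberg, with calls at 0.05. This scale understates changes of low genes. The filter is the level of the rule, so all 166 genes passed it. Errors of log2 fold changes are SE, those of levels SD.

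Reads per gene were derived from the whole-number steps of the RPKM values (tolerance 0.02 reads), with the annotated exon length for 116 of the lincRNA genes and the smallest length giving whole reads for 50, whose reads are known up to a common factor. For Gm26917 that length was 869 bases, against 3329 annotated. They add up to 99.93% of the library size. Over genes of all kinds, counting error makes up only some of the spread between libraries. Its part for the lincRNA genes alone was not tested.

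The named genes are the 10 highest, the 5 largest log2 fold changes in each direction, small RNA hosts, members of the noncoding lists, the 3 genes on either side of the level, and the 2 smallest adjusted p of each protein list, of which 1 gene is not reported here. Gm26532, Mirt1 and the genes given with promoters or as neighbours were named after their values were seen. The genes and lists were chosen with earlier results of these data known. Scripts ran on Python 3.11.15, numpy 2.4.6 and pandas 2.3.3, and were tested on simulated data before use.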

Additional observations from a re-analysis of the deposited data

How the results depend on the processing

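No lincRNA gene was called by limma with a pseudocount of 0.1, without a filter, with a filter at 1 RPKM, after rescaling to the same median or quantile normalization, without the trend, at an adjusted p of 0.1, or with any library left out; voom called 1 (Mirt1). The median log2 fold change of 0.047 was 0.0797 with a pseudocount of 0.1, 0.0972 with voom and 0.0124 after quantile normalization, all positive, and 0.0491 to 0.0591 with a library left out. The 26 genes with non-overlapping groups (15.7%, against 19.9% of all tested genes) became 10 of 86 with the filter at 1 RPKM (11.6%, against 20.5%), 12 of 107 with no exon overlap (11.2%), 20 of 151 with both group means at the level (13.2%; both chosen after seeing the data), and 42 to 55 with a library left out (25.3% to 33.1%, against 26.5% to 32.9%), where fewer libraries are compared by construction. Leaving out the genes RefSeq lists as protein coding or pseudogene, also chosen after seeing the data, left 154 with a median of 0.0501. Of the 37 named lincRNA genes, 23 kept their sign under all alternatives that gave a value and 14 did not. Mirt1, called by voom, is among the 23, and no other was called under any of these alternatives. No paired analysis was possible because the groups share no replicate number. Of the 166 genes, 68 had fewer than 50 reads on average, which limits their precision.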

Other observations

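The 762 lincRNA genes above 0 but under 0.5 RPKM were tested in limma without the filter, and none was called, while 43 (5.64%) had an unadjusted p under 0.05, against 8.76% of all genes in that fit. That fit called 7 of 24989 genes. Gm16188 had the second smallest p among them, with 2, 3 and 2 reads in β-gal and 6, 5 and 6 reads in Aloxe3-overexpressing cells (adjusted p = 0.219, limma). Well-known lincRNA genes of development were at or near 0. H19, the imprinted growth regulator, was at 0.00911 RPKM in β-gal and 0.00462 RPKM in Aloxe3-overexpressing cells, Mirg at 0 and 0.00173 RPKM, and Meg3 at 0 in every library. An exact 0 need not mean absence, since the microRNA biogenesis gene Dgcr8 was at 0 in every library too. Mir155hg, host of an inflammatory microRNA, was at 0.332 against 0.540 RPKM, and Mir142hg, a hematopoietic host, at 0.272 against 0.134 RPKM. The groups overlapped for both genes, and Mir142hg had at most 4 reads in a library.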
